A study of Mus musculus with 4 samples.

Results

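Definitive endoderm is the germ layer that gives rise to the gut tube and to the organs that bud from it. Its cells leave the primitive streak under Nodal signalling and enter the outer layer of the mouse embryo among visceral endoderm cells, which nourish the embryo and share many of its transcription factors. The node and the notochord lie in the same outer layer at the early headfold stage, so a node-containing piece of the embryo also carries definitive endoderm. The 8 genes described here are transcription factors of the layer (Sox17, Foxa3, Hhex, Gata4 and Gata6), the chemokine receptor gene Cxcr4 and the secreted peptide genes Trh and Pyy. They were taken as a named list, and every probe that carried one of these names, or an accession that leads to one, was used: 17 probes on 26 spots, out of 41174 gene probes. All 8 genes had at least 1 probe measured, among 18607 measured genes.

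The homozygous group (Noto GFP/GFP) carries a GFP insertion on both alleles of Noto, which encodes a homeobox factor made in the node and notochord. The heterozygous group (Noto GFP/+) carries the insertion on 1 allele, so no group without GFP was compared, although the series' design text calls it wild type. Both came from a Sv129/CD-1 hybrid background at the early headfold stage (about E7.75), from pools of 120 to 150 distal embryo pieces, whose size the labels state in more than one way. Each genotype is 1 RNA pool, measured on 2 Agilent 2-colour arrays that each held both genotypes, with the homozygote in Cy5 on array 1 and in Cy3 on array 2. The 4 samples are therefore 2 technical readings of each pool.

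Levels below are normalized intensities, which compare samples for 1 probe and not 1 probe with another. Ratios are log2 of homozygote over heterozygote, as the mean ± SD over the 2 arrays (n = 2, technical), and no test was possible with 1 pool per genotype. A gene was called higher or lower when its ratio was at least 1.5-fold in the same direction on each array. By the scanner software's fitted slope, log ratios of the spiked-in controls were 0.809 (array 1) and 0.705 (array 2) of their known size. The software's ratios were therefore compressed, and no such slope was computed for the ratios given here. In pooled tissue, fewer cells of a type and less RNA per cell cannot be told apart.

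The array reads each gene through 60-base probes, and the result for Cxcr4 turns on which of its probes is read. Printed here, 5′ to 3′ from the array files and with no part marked, are 4 probes that lie upstream of another measured probe of the same gene and read through without a stop codon in at least 1 frame. The upstream probes of Gata6 and of Gata4 (there the brighter one) also meet this description and are not printed here. Their ratios are given with those genes. The gap in ratio between a printed probe and the brighter probe of its gene was widest for Cxcr4 (0.49). It was narrowest for Sox17 (0.06), and the gap was not part of the printing rule. Their positions on mouse build mm8 are chr1:130416628-130416687 (Cxcr4, minus strand), chr19:37502375-37502434 (Hhex, plus strand), chr11:101923087-101923146 (Pyy, minus strand) and chr1:4481890-4481949 (Sox17, minus strand).
Cxcr4: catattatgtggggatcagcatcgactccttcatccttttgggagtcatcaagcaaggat
Hhex: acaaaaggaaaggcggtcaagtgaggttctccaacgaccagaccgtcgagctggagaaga
Pyy: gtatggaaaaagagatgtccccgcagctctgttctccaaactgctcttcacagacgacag
Sox17: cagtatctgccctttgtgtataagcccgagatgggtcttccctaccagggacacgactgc

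The definitive endoderm genes did not move as a group between the genotypes. Foxa3, the 3′ probe of Cxcr4 and Gata6 read lower in the homozygous pool on both arrays, by less than the size rule asks, while Sox17, Trh and Gata4 read close to equal. Hhex and Pyy read opposite ways on the 2 arrays. By the size rule 0 of the 8 genes were lower and 0 were higher. Over all measured genes the rule called 2.35% lower and 0.0591% higher (437 and 11 genes), so 0 of 8 does not stand apart from that background. Of all called genes 97.5% were lower, against 87.3% with the authors' deposited value table, where the same members remained without a call. The median ratio of the 8 genes was -0.10, against -0.02 for all measured genes, and it was 0.01 on array 1 and -0.28 on array 2.

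**Figure D1:**
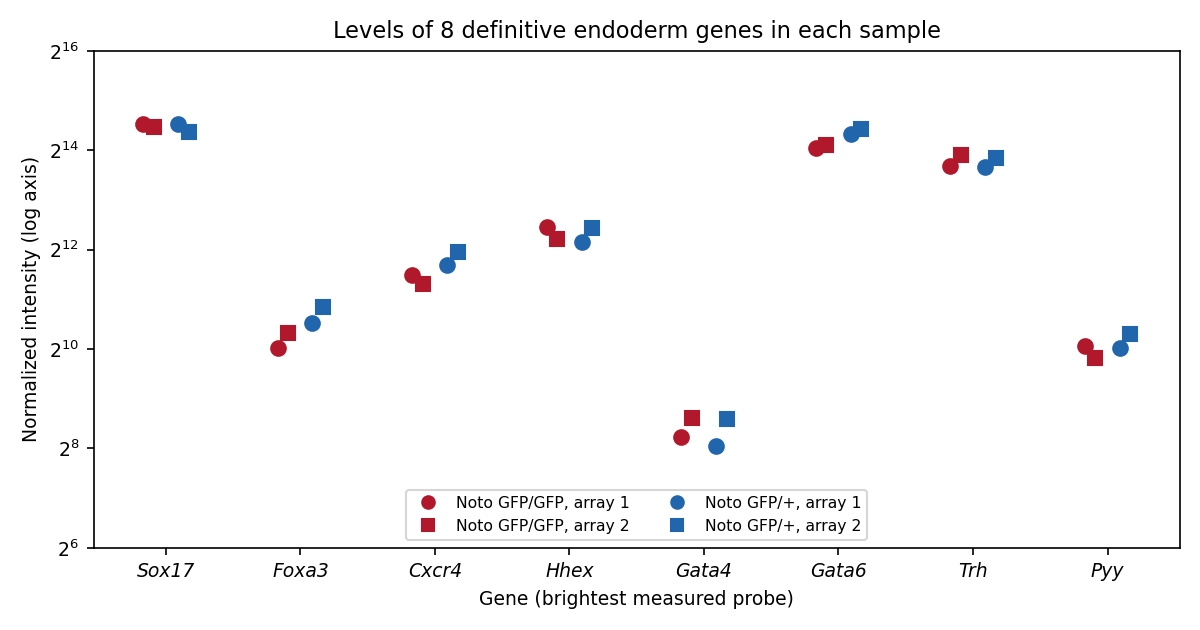
Normalized intensity (log axis) of the brightest measured probe of each of the 8 genes, with the homozygous pool in red to the left of the heterozygous pool in blue, and circles for array 1 and squares for array 2. The red points of Foxa3, Cxcr4 and Gata6 lie below their blue points, and those of the other 5 genes overlap them.

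Among the transcription factors, Foxa3, the forkhead factor of gut endoderm and later of liver, had the steadiest ratio below 0. Its single probe (chr7:18172226-18172285) read 1045 and 1288 in the homozygous pool on arrays 1 and 2, against 1473 and 1843 in the heterozygous pool. Both homozygous readings lay below both heterozygous ones. The log2 ratio was -0.51 ± 0.02 (-0.49 and -0.52 on the 2 arrays), a level 0.704 times that of the heterozygote. The gap between its arrays, 0.0223, was narrower than in most genes, since 92.8% of measured genes had a gap at least as wide. As low a ratio or lower was read in 4.58% of all measured genes, and in 7.84% of the genes dimmer than the median, as Foxa3 is.

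Gata6, a zinc-finger factor of endoderm and heart, also read lower in the homozygous pool on both arrays. Its brightest probe (chr18:11085039-11085097) gave 16977 and 17517 in the homozygous pool, against 20395 and 22043 in the heterozygous pool, without overlap. The log2 ratio was -0.30 ± 0.05, and -0.08 with median centring, where the median of all genes was 0.12. A second probe 20527 bases upstream gave 803 and 1323 in the homozygous pool and 956 and 1470.05 in the heterozygous pool, where the arrays differ more than the genotypes. Within each array this probe too read lower in the homozygote, at -0.20 ± 0.07. The remaining probe, 30504 bases upstream of the first, was well above background on array 1 only and was not counted as measured. Among genes brighter than the median, 4.30% had a ratio as low as that of Gata6 or lower.

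Gata4, the related factor that acts with Gata6 in endoderm and heart, did not follow it. The array repeats 1 Gata4 probe (chr14:62153420-62153479) on 10 spots, which gives the error within an array. It read 299 and 393 in the homozygous pool and 265 and 388 in the heterozygous pool, with overlap. The ratio over its spots was 0.18 ± 0.06 on array 1 (SD, 10 spots) and 0.02 ± 0.04 on array 2 (SD, 8 spots left after outliers), so the arrays differed by more than the spots did. Over both arrays it was 0.10 ± 0.11, and -0.10 relative to the median of all genes with median centring. A second Gata4 probe, of which the files place 22 bases (chr14:62153025-62153046), read -0.07 ± 0.13, so neither probe differed from 0 beyond the spread between arrays.

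Sox17, the SRY-box factor that endoderm formation requires, read near 0 on both measured probes. The brighter probe (chr1:4481503-4481562) gave 23709.5 and 22556 in the homozygous pool, against 23483.5 and 21033 in the heterozygous pool. Its log2 ratio was 0.06 ± 0.06. The probe printed above, 387 bases upstream, gave 9049 and 12016 in the homozygous pool and 9432.5 and 9834 in the heterozygous pool, with a ratio of 0.11 ± 0.25. Both probes overlapped between genotypes. The 2 remaining probes that carry the name were not well above background in any sample. One lies 3728 bases upstream of the brighter probe, and the other (chr1:4488752-4488811) was designed on a transcript of the opposite strand, with normalized intensities from 80.0 to 99.3.

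Hhex, a homeobox factor of the anterior endoderm and of the liver and thyroid buds, read differently on the 2 arrays. Its brighter probe (chr19:37505623-37505682) gave 5624 and 4753 in the homozygous pool, against 4527 and 5538 in the heterozygous pool. The homozygote was therefore the higher on array 1 (0.31) and the lower on array 2 (-0.22), with a mean of 0.05 ± 0.38. A gap that wide or wider was seen in 6.10% of measured genes. The Hhex probe printed above, 3248 bases upstream, gave 199 and 319 in the homozygous pool and 161 and 257 in the heterozygous pool. Its ratio was 0.31 ± 0.00, above 0 on both arrays, and both genotypes were well above background on both. Median centring instead of loess gave 0.14 (0.02 relative to the median of all genes), and the scanner software's log ratio 0.56, so its size depended on the processing.

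Cxcr4 encodes the receptor of the chemokine Cxcl12 and is a surface marker of definitive endoderm that mesoderm and blood vessel cells share. Its 2 probes disagreed. The brighter one, at the 3′ side (chr1:130416048-130416107), gave 2856 and 2529.8 in the homozygous pool, against 3297 and 3975 in the heterozygous pool, without overlap. Its ratio was -0.43 ± 0.31, with -0.21 on array 1 and -0.65 on array 2, and it was -0.25 with median centring and -0.19 as the mean of the probes of Cxcr4. It met the size limit on array 2 alone. The probe printed above, 580 bases upstream, gave 1457 and 1274 in the homozygous pool and 1398 and 1225 in the heterozygous pool. That probe read 0.06 on each array (0.06 ± 0.00).

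The 3′ probe of Cxcr4 thus read 0.49 lower than the upstream one on average, by 0.27 on array 1 and 0.71 on array 2. Both were well above background in both genotypes on both arrays. The 3′ probe holds the letters AATAAA, the usual polyadenylation signal, from its base 39, and the upstream probe does not. The brighter probes of Pyy and Gata4 hold these letters too. The Pyy one read below the other probe of its gene (-0.23 against 0.01) and the Gata4 one above (0.10 against -0.07). Whether the probes of Cxcr4 read different transcript ends was not tested. Of the 4473 genes with exactly 2 measured probes, 5.14% had probes at least this far apart, and the median distance was 0.13. The same distance was 0.27 for Hhex, 0.25 for Pyy, 0.17 for Gata4, 0.10 for Gata6 and 0.06 for Sox17. Probes of opposite sign are common, at 38.2% of such genes.

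**Figure D2:**
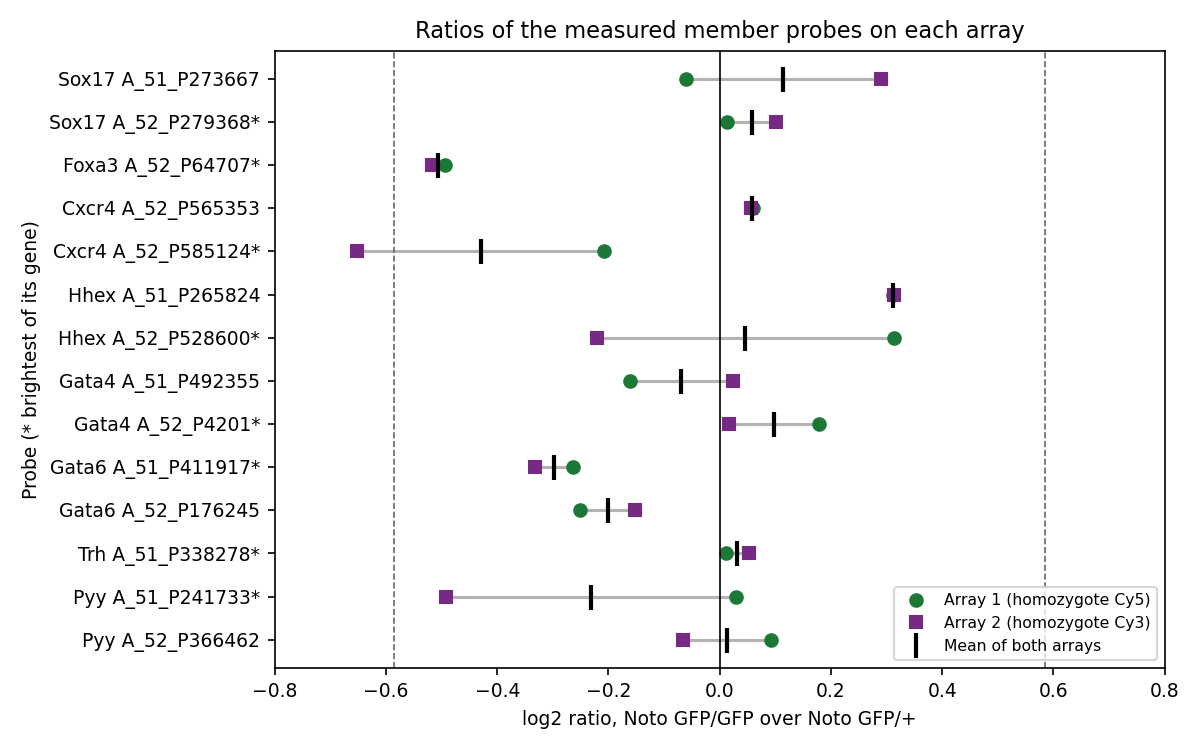
Log2 ratio of homozygote over heterozygote for each of the 14 measured member probes, with green circles for array 1, purple squares for array 2 and a black tick for their mean. Dashed lines mark 1.5-fold. The probes of Cxcr4 lie apart, Foxa3 and both Gata6 probes lie below 0 on both arrays, and 1 point, the 3′ probe of Cxcr4 on array 2, passes a dashed line.

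Of the peptide genes, Trh, which encodes the precursor of thyrotropin-releasing hormone and is known from early gut endoderm, read close to equal in both pools. Its probe (chr6:92207880-92207939) gave 13098 and 15263 in the homozygous pool, against 12996 and 14720.5 in the heterozygous pool. The ratio was 0.03 ± 0.03, with a gap between arrays narrower than in 87.1% of measured genes. Pyy encodes the gut hormone peptide YY. Its brighter probe (chr11:101922766-101922825) gave 1066 and 898 in the homozygous pool and 1045 and 1264 in the heterozygous pool, with overlap, and a ratio of -0.23 ± 0.37. The homozygote read 0.03 on array 1 and -0.49 on array 2, a gap that 6.57% of measured genes reached. The Pyy probe printed above, 321 bases upstream, read 0.01 ± 0.11, from 196 and 181 in the homozygous pool and 184 and 189 in the heterozygous pool.

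Over the 8 genes, the homozygous levels lay below the heterozygous ones without overlap in 3 (Foxa3, Cxcr4 and Gata6) and above them in 0. Over all measured genes the same held for 16.6% and 10.7%. Among genes brighter than the median it was 9.62% below, which covers Gata6 and Cxcr4 (brightness percentiles 78.4 and 51.1). Foxa3 (percentile 40.7) is among the genes dimmer than the median, where the share below was higher than over all genes. The arrays agreed on a ratio below 0 for 3 members and on one above 0 for 3, against 34.0% and 25.7% of measured genes. With a smaller limit on each array, 0.32 on the log2 scale, 1 member was lower (Foxa3) and 0 higher, against 6.37% and 1.18% of measured genes. Cxcr4, Hhex and Pyy, the 3 members with the widest gaps between arrays (0.44, 0.53 and 0.52), all read higher on array 1, where the homozygote carried Cy5. The part of the reading that follows dye or array in place of genotype was 0.22, 0.27 and 0.26. It exceeded the size of the mean ratio for Hhex and Pyy, 2 of the 8 members, against 40.4% of all measured genes. Dye and array cannot be told apart in this part.

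**Figure D3:**
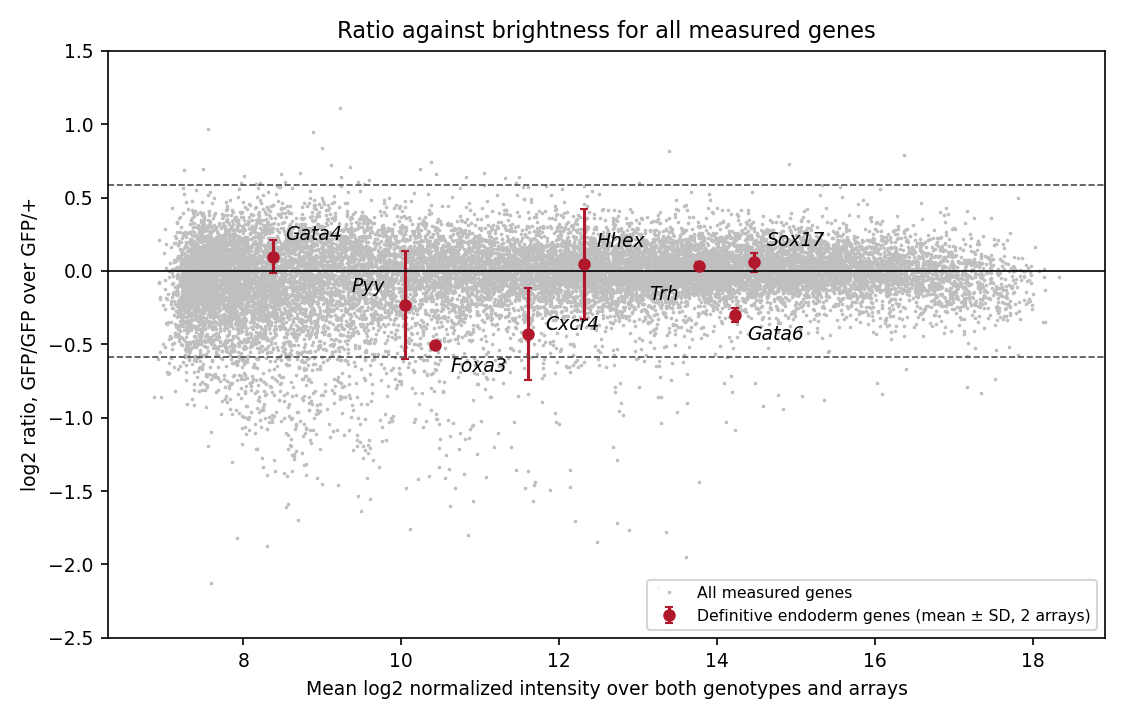
Mean log2 ratio of homozygote over heterozygote against mean log2 normalized intensity for all measured genes (grey), with the 8 definitive endoderm genes in red and bars of ± SD over the 2 arrays. Dashed lines mark 1.5-fold. All 8 means lie between the dashed lines, where Foxa3 (-0.51) is the lowest, and the grey cloud reaches lower ratios among dim genes.

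The wider set of endoderm transcription factors included no called gene. Of 16 measured, 0 were lower and 0 higher, with a median of -0.12. Ratios lay below 0 on both arrays in 8 and above 0 in 2, against 34.0% and 25.7% of all measured genes. Heart markers had 8 of 15 below and 4 above, and node and notochord markers 8 of 15 below and 3 above. Parietal endoderm markers had 2 of 11 below and 5 above. Foregut and organ bud genes had 8 of 14 below and 4 above, midgut and hindgut genes 4 of 9 and 1, and epithelial genes 3 of 19 and 6. Visceral endoderm markers had 7 of 20 below and 5 above, endothelial and blood progenitor markers 6 of 14 and 4, and streak and paraxial mesoderm markers 4 of 13 and 4. Gsc, a homeobox factor of the anterior streak and of the endoderm it gives rise to, lay farthest from 0 at -0.66 ± 0.20 and missed the rule on array 1 (-0.52). Foxh1, the DNA-binding partner of Smad proteins in Nodal signalling, read -0.30 ± 0.21. The relatives of Foxa3 read -0.05 ± 0.02 (Foxa1) and 0.10 ± 0.29 (Foxa2), both nearer 0 than Foxa3. The relatives of Sox17 read -0.20 ± 0.21 (Sox7) and -0.19 ± 0.04 (Sox18), and Gata5 read -0.17 ± 0.28.

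Genes of gut regions were also uncalled. In the foregut and organ bud list 0 of 14 measured genes were lower or higher, with a median of -0.04. Mnx1, a homeobox factor of notochord and pancreas bud, read -0.45 ± 0.15, and Pax9, a factor of the pharyngeal endoderm, read -0.43 ± 0.14. In the midgut and hindgut list 0 of 9 were called, with a median of -0.01. Cdx1, a homeobox factor of the posterior body and gut, read -0.54 ± 0.30, and the signalling gene Shh -0.44 ± 0.07. Epithelial genes of the layer had 0 of 19 called and a median of -0.01, with the tight junction gene Cldn4 at 0.40 ± 0.26 and Emb, which encodes the adhesion protein embigin, at 0.36 ± 0.29.

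Ligands, receptors and partners of the members had 0 of 14 measured genes called and a median of 0.14. Of these 14, 10 had ratios above 0 on both arrays and 1 below, against 25.7% and 34.0% of all measured genes. Only 7 of the 14 were brighter than the median gene. Cxcl12, the ligand of Cxcr4, read 0.10 ± 0.09 on its brightest probe and -0.00 ± 0.04 on another. Ackr3, the second receptor of that ligand, read -0.30 ± 0.19. Tle4, a corepressor that homeobox factors recruit, read 0.49 ± 0.31, and Npy1r, a receptor of the neuropeptide Y family, 0.48 ± 0.09. The signal of Npy1r was low, at 226 and 320 in the homozygous pool and 155 and 239 in the heterozygous pool. Pam, the enzyme that amidates peptide hormones such as those of Trh and Pyy, read -0.01 ± 0.21. Trhr, Npy and Ppy had no measured probe.

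Several members are also made by other cells of the piece, and the markers of those cells were measured in the same samples. Visceral endoderm, which makes Gata4, Gata6, Sox17 and Hhex too, had all 20 of its markers measured and 0 called, with a median of -0.04. Their summed intensity was 391806 and 353152 in the homozygous pool, against 411162 and 343578 in the heterozygous pool, with overlap. Such sums are carried by the brightest probes, such as Rhox5 here and Myl7 and Mesp1 among the heart markers, and do not weigh all markers alike. Fgg, a fibrinogen chain, read -0.37 ± 0.17 and the endocytic receptor gene Lrp2 0.40 ± 0.12. Parietal endoderm markers had 0 of 11 called and a median of 0.03, with the laminin genes Lama1 at 0.27 ± 0.02 (another probe at -0.32) and Lamc1 at 0.19 ± 0.20.

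Heart mesoderm, which shares Gata4 and Gata6, had 0 of 15 markers called and a median of -0.09, with summed intensities of 134931 and 131699 in the homozygous pool and 129341 and 132625 in the heterozygous pool. The heart myosin gene Myh6 read 0.48 ± 0.06 and the lateral mesoderm factor Hand1 -0.33 ± 0.15. Endothelial and blood progenitors, which share Cxcr4, Sox17 and Hhex, had 0 of 14 markers called and a median of -0.08, and Pecam1 was not measured. Their summed intensities were 47153 and 44225 in the homozygous pool, against 58170 and 46923 in the heterozygous pool. Etv2 and Tal1, factors that start this lineage, read -0.59 ± 0.21 and -0.47 ± 0.27. The part of these cell types in the ratios of Foxa3, Gata6 and Cxcr4 was not tested.

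Streak and paraxial mesoderm had 1 gene lower and 1 higher of 13, the somite factor Meox1 (-0.62 ± 0.04) and the Nodal antagonist Lefty2 (0.82 ± 0.25), and a median of 0.01. Meox1 missed the limit with median centring, at -0.07 on array 1 and -0.75 on array 2. With the mean of its probes it read -0.60 on array 1 and -0.58 on array 2, just short of the limit on array 2. Neural and surface ectoderm had 0 of 11 called and the lowest median of the lists, -0.14. Of these genes, 8 had ratios below 0 on both arrays and 2 above, against 34.0% and 25.7% of all measured genes. The patterning factors Zic2 and Pax6 read -0.64 ± 0.32 and 0.45 ± 0.14. Node and notochord markers bear on the label of the tissue, and 15 of 16 were measured, all well above background in all 4 samples. Of these, 1 was lower, the cilium dynein gene Dynlrb2 (-0.95 ± 0.04), and 0 higher, with a median of -0.10, and Foxd4 read -0.57 ± 0.09. Dynlrb2 missed the limit with median centring, at -0.38 on array 1 and -1.07 on array 2.

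**Figure D4:**
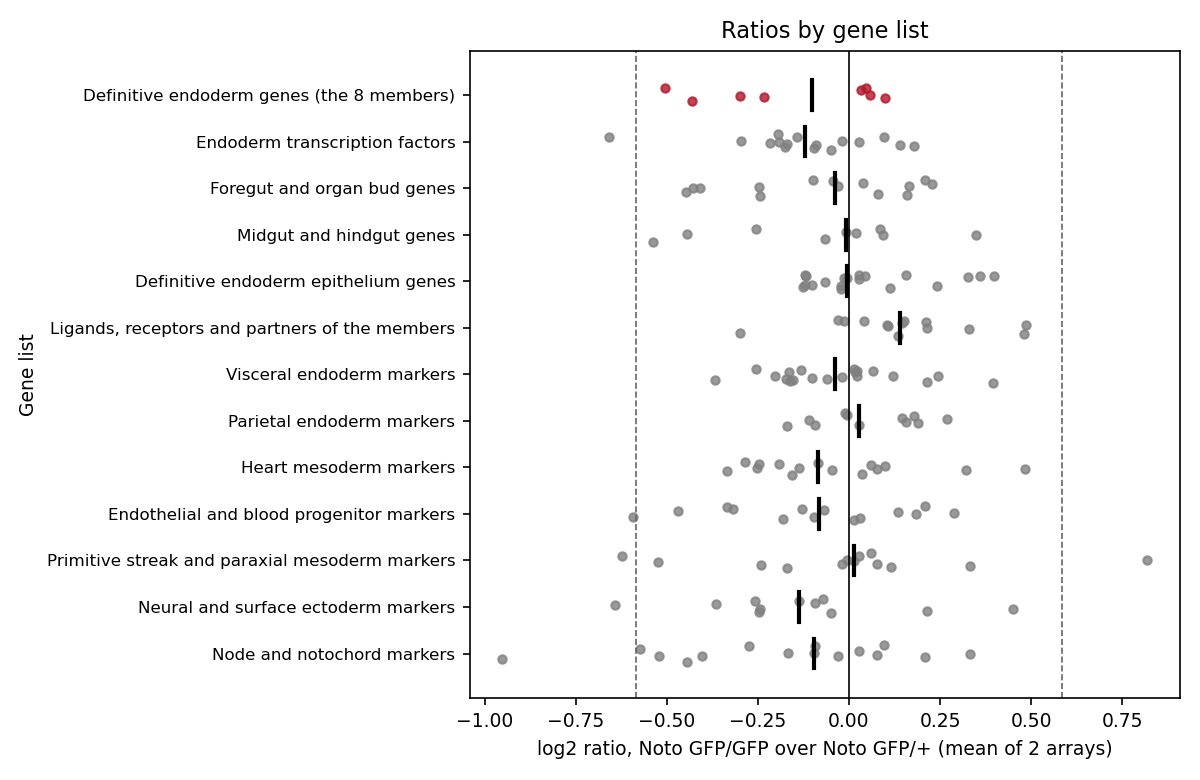
Mean log2 ratio of homozygote over heterozygote for every measured gene of each list (points) with the list's median (black bar), the 8 definitive endoderm genes in red at the top. Dashed lines mark 1.5-fold. The median of the 8 genes (-0.10) lies between those of the other lists, which run from -0.14 to 0.14.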

How the data were processed

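Per the file headers, the authors used Agilent Feature Extraction 9.5.3.1 (the submitters' processing notes name it too) on each 2-colour array, which wrote foreground and background intensity, processed intensity, a log10 ratio of red over green and 0 or 1 flags (other columns) per spot, with probe positions on mm8. The scanner files of both samples of an array were identical. The columns of the authors' deposited value table followed the processed intensity of the labelled dye at a median factor of 1.07 on array 1 and 1.28 on array 2, with an SD of the log2 factor of 0.0054 and 0.0056 on array 1 and of 0.048 and 0.064 on array 2, with a floor of 15, column medians of 109.6 and 95.1 (homozygote) and 110.6 and 96.2 (heterozygote), and an unstated method.

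Each array held 43379 gene spots. Between 64.0% and 81.5% of them were well above background per dye and array, and 0 were saturated. The number of arrays limits the precision. With limma 3.58.1 in R 4.3.3, intensities were corrected by normexp (offset 50), normalized by loess with control spots at weight 0, and turned to homozygote over heterozygote. Outlier spots (179 and 165) were left out and spots of a probe averaged. Levels were set between arrays by Aquantile. A probe was measured if, on both arrays, at least 1 genotype was well above background, which 14 of the 17 member probes were. A gene took its brightest measured probe. Symbols came from RefSeq (GRCm38.p6, names only); 33116 probes matched. The rules were run on simulated data. For the size rule, the changed probes were all well above background and their changes well above the limit. That run does not show how the rule performs near the limit or for dim probes. Python 3.11.15 made the summaries.

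Members, lists and rules were chosen with earlier results of these data known. Named genes are all members, each list's called genes and its 2 farthest from 0, and 11 relatives, ligands and enzymes given whatever their values. The alternatives were other background, scaling, probe, filter and size settings and each array alone. Noto was not analysed here.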

Additional observations from a re-analysis of the deposited data

How the results depend on the processing

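The values are limited by the single pool of each genotype and by arrays that repeat it technically. Further limits are the compressed ratios of the spiked-in controls and the low signals of Gata4 and the upstream Hhex and Pyy probes. No paired analysis was possible because no test was made, and each ratio already pairs both genotypes within an array. Under 8 settings of background, scaling, probes and filter, no member was called. Both filters on dim probes left every member's value as it was, so they tested nothing here. Of 64 cases 45 gave another value, by at most 1 SD in 39 and by more in 6, and none of the 45 changed sign. Foxa3 ranged from -0.52 to -0.38, Gata6 from -0.32 to -0.08 and Cxcr4 from -0.44 to -0.19, the last with the mean of its probes. Median centring moved the median of all genes to 0.12, and relative to it Foxa3 read -0.50, Gata6 -0.21, the 3′ probe of Cxcr4 -0.37, Sox17 0.16 and Trh 0.12, while Gata4 turned to -0.10. The Pyy probe printed above turned to -0.12 with median centring. On single arrays the median of the members ranged from -0.28 to 0.01. Without replicate 1 (array 2 alone) 1 member was lower, Cxcr4, and the number ranged from 0 to 1 over both single arrays and that of higher members was 0 on each. With a limit of 0.32 on the log2 scale 1 member was lower, Foxa3, against 6.37% of all genes (1185 lower, 219 higher). Over all genes, the higher and lower counts ranged on single arrays from 114 to 125 and from 644 to 945. The higher count was 22 with an offset of 16, 101 with the software's log ratio (713 lower) and 95 with the value table (651 lower), against 11 and 437. The cause of these shifts was not tested.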
